A study of Mus musculus with 6 samples.

Results

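The genes described here are 43 cytosolic and mitochondrial chaperones, cochaperones and heat shock factors, taken by symbol from a fixed list out of 20591 genes in an RNA sequencing table. The cells were colonic B cells, sorted from mice given either lenvatinib, an inhibitor of receptor tyrosine kinases such as the VEGF and FGF receptors, or DMSO as the control, with 3 libraries in each group. The labels call the libraries of each group biological replicates. They give no strain, age, dose, time or colitis state, and do not say whether each library came from its own animal. The p-values therefore rest on a spread between libraries, which may not be a spread between animals. Read totals recovered from the FPKM values ran from 26635279 to 31655500 per library. All 43 genes were in the table and 42 passed the filter on low values, an FPKM of 1 or more in 3 or more libraries. The exception was Hsf2.

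Chaperones bind unfolded or partly folded proteins and keep them from aggregating while they fold. HSP70 proteins take up exposed hydrophobic stretches in cycles of ATP hydrolysis that J-domain proteins start and exchange factors such as the HSP110 proteins end. HSP90 and its cochaperones finish and hold signalling proteins, among them kinases, and the ring-shaped CCT chaperonin folds actin and tubulin. In mitochondria HSP60 with its lid HSP10 and the mitochondrial HSP70 do the same work for imported proteins. Heat shock factors bind inverted repeats of the triplet GAA, the heat shock element, and drive many of these genes under protein stress.

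Most chaperone transcripts were higher in the lenvatinib libraries, by small amounts. Of the 42 tested genes 29 (69 percent) rose and 1 fell at an adjusted p of 0.05 in limma, a linear model fitted over all genes, while 12 did not pass. Over all 9937 tested genes 10.4 percent rose, 8.21 percent fell and 18.7 percent passed in either direction. The median log2 change was 0.22 over the tested chaperones and 0.01 over all tested genes. In 33 of the 42 every lenvatinib library lay above every DMSO library, and in 1 every one lay below. The same shares over all tested genes were 18.9 and 18.2 percent. The chaperones took 2.8, 2.8 and 2.82 percent of the recovered read totals in DMSO replicates 1, 2 and 3. In lenvatinib replicates 1, 2 and 3 they took 3.4, 3.42 and 3.37 percent, so the groups did not overlap. Values are FPKM, reads relative to gene length and library size, after a small scaling between libraries. Changes are given on the scale of log2(FPKM + 1), which understates those of low genes.

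The chaperone genes rose in libraries whose cell type markers also differed. All 11 B cell markers were present and all 11 fell, with a summed FPKM of 2752 to 2794 in DMSO and 2274 to 2313 in lenvatinib libraries. Of 10 T cell markers 7 rose and 1 fell, with sums of 128 to 134 and 210 to 221. Of 8 natural killer and innate lymphoid markers 7 were tested and 7 rose, with sums of 20.4 to 22.5 and 98.4 to 105, and Ncr1 was listed at 0 in at least 1 library. Of 12 colon epithelial markers 8 were tested and 8 rose, with sums of 14.5 to 15 and 65.5 to 69.9, and Krt20 was listed at 0 in at least 1 library. Macrophage and neutrophil markers rose in 3 of 7 tested cases, with sums of 39.4 to 43 and 49.7 to 57.4. Plasma cell markers, with 1 higher and 1 lower of 6, had sums of 365 to 368 and 337 to 354. A marker could pass the filter on low values through the lenvatinib libraries alone. For scarce markers, as of colon epithelium, the count of tested genes that rose may thus be partly set by the filter. The sums cover every listed marker, tested or not. The part of these cell type differences in the chaperone result was not tested, and in bulk libraries fewer cells of a type and less RNA per cell cannot be told apart.

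**Figure D1:**
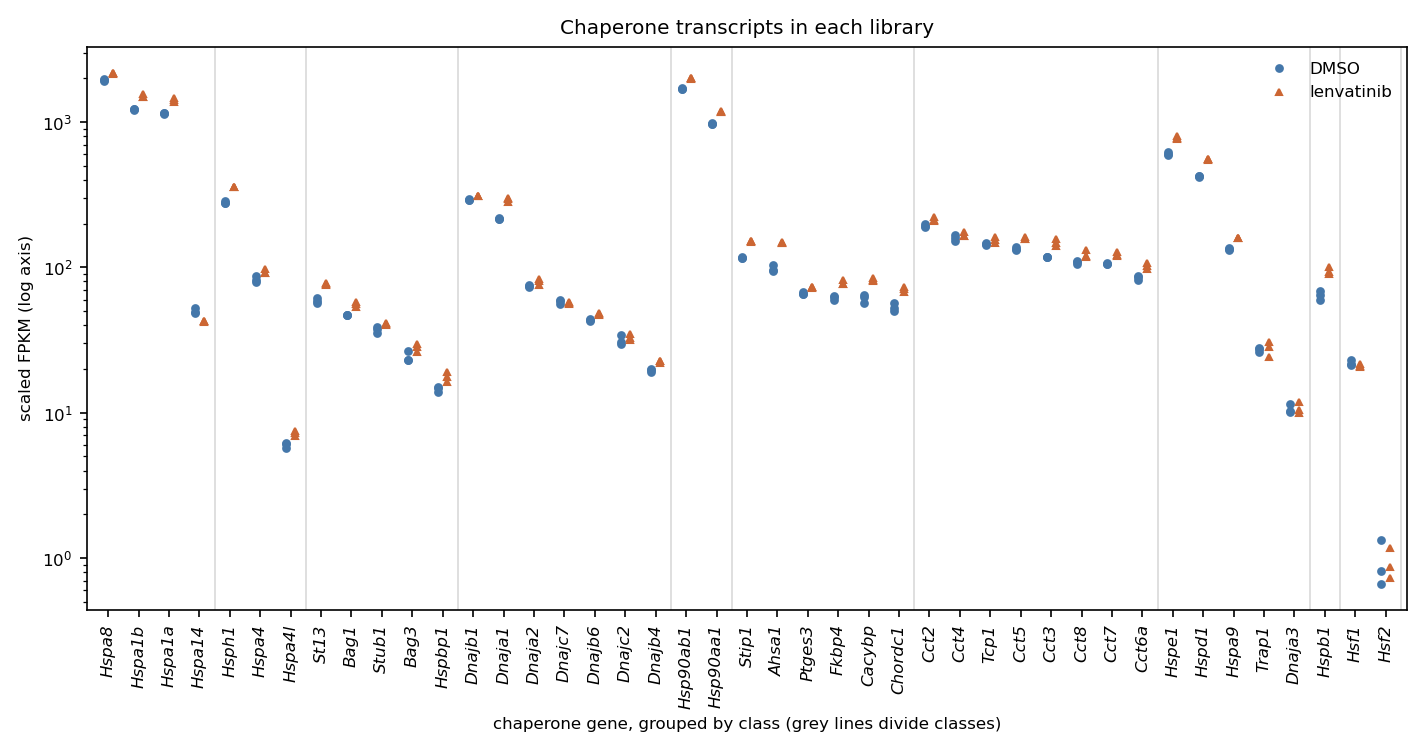
Scaled FPKM of the 43 chaperone genes in each library, on a log axis, with 3 DMSO libraries (circles) and 3 lenvatinib libraries (triangles) per gene and genes grouped by class. Levels run from a DMSO mean of 0.933 for Hsf2 to 1948 for Hspa8, and most triangles sit a little above the circles of the same gene.

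By DMSO mean, the most abundant transcripts were Hspa8 at 1948, Hsp90ab1 at 1702, Hspa1b at 1222, Hspa1a at 1147 and Hsp90aa1 at 972. They were followed by the mitochondrial pair Hspe1 at 604 and Hspd1 at 423. Calls were more frequent among abundant genes: 17 of the 19 with a DMSO mean of at least 100 rose, and of the 23 tested genes below that level 12 rose and 1 fell. Shares of all tested genes at these levels were not computed, so the shares given over all tested genes are not matched for level. Read numbers behind these values were lowest for Hspbp1 and Dnaja3 among the tested genes, with 692 and 727 reads in their shallowest libraries.

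The promoters of several of these genes hold heat shock elements, shown here because this is the sequence through which heat shock factors are known to act on chaperone genes. Promoter sequences, 250 bases before to 50 after a start site, were found in RefSeq (GRCm38.p6) for 35 of the 43 genes. Those not matched were Hspa8, St13, Dnajc2, Hsp90aa1, Hsp90ab1, Cct4, Hspa9 and Hsf1. The element searched, on both strands, was the 8-base pair of units GAANNTTC followed after any 2 bases by another GAA, so 3 units in alternating orientation. It occurred in the promoters of 5 of 35 chaperones (14.3 percent), against 0.662 percent of the 27025 genes with a promoter in the table. This share is a trait of the gene list and not a result of the lenvatinib comparison. The 5 were Hspd1, Hspe1, Hsph1, Chordc1 and Dnajb6, of which 4 rose and Dnajb6 did not pass, with a median log2 change of 0.37. Of the 29 tested genes with a promoter and without the element 20 rose (69 percent, the share over all tested chaperones), 1 fell and 8 did not pass, with a median of 0.22. The genes with the largest changes, Ahsa1 and Hspb1, were among those without it, though Hspb1 holds 2 separate pairs of units, the first of them printed below. Only exact matches within the promoter window were counted, so a gene without a match was not shown to lack a heat shock element. Any part of the element in these changes was not tested. The elements are printed with capitals for the matched units.
Hspe1, chr1:55088053-55088082, plus strand: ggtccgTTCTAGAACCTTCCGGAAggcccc
Hsph1, chr5:149636280-149636308, minus strand: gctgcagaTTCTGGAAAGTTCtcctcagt
Chordc1, chr9:18292260-18292288, plus strand: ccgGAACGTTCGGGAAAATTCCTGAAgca
Dnajb6, chr5:29735844-29735872, plus strand: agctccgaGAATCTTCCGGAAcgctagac
The first stretch was counted for 2 genes, because Hspd1 and Hspe1 lie head to head and their promoters share it. It lies at positions -89 to -72 from the Hspe1 start and -144 to -127 from a start of Hspd1 on the other strand. The promoter of another Hspd1 start does not hold it. The Chordc1 match is the longest, 23 bases over positions -4 to 19. The Hsph1 match lies after that gene's start, at positions 16 to 28 from one annotated start and 37 to 49 from another. The Dnajb6 match lies at positions -46 to -34 or -127 to -115, again by the start used.

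Pairs of 2 units, GAANNTTC or TTCNNGAA, were more common and occurred in 16 of the 35 chaperones (45.7 percent) and in 17 percent of all genes with a promoter. Every 3-unit match also holds such a pair, and these shares too are traits of the gene list. Of the 16 genes 13 rose and 3 did not pass (Bag3, Stub1 and Dnajb6), with a median log2 change of 0.31. Of the 18 tested genes with a promoter and without a pair 11 rose, 1 fell and 6 did not pass, with a median of 0.17. Stretches are printed for 3 genes with large changes, picked with their values known, again with the pair in capitals.
Hspa1a, chr17:34972242-34972271, minus strand: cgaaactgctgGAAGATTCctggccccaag
Hspb1, chr5:135887791-135887820, plus strand: cttcaacaagaGAAGTTTCcagatgggggc
Dnaja1, chr4:40722333-40722362, plus strand: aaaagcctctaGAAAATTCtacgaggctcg
Hspa1b holds the same 30 letters as Hspa1a, at chr17:34959324-34959353, and in both genes the pair lies at positions -104 to -97. The printed Hspb1 pair lies at positions -117 to -110, and a second pair, not printed, at -97 to -90. The Dnaja1 pair lies at positions -124 to -117 from an annotated start, and the promoters of its other annotated starts hold no pair. A gene with several promoters was counted if any of them held a match. A match is a run of letters and not a measured binding site, and its part in the changes was not tested. Nor does the lack of an exact match show that a gene has no such site.

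**Figure D2:**
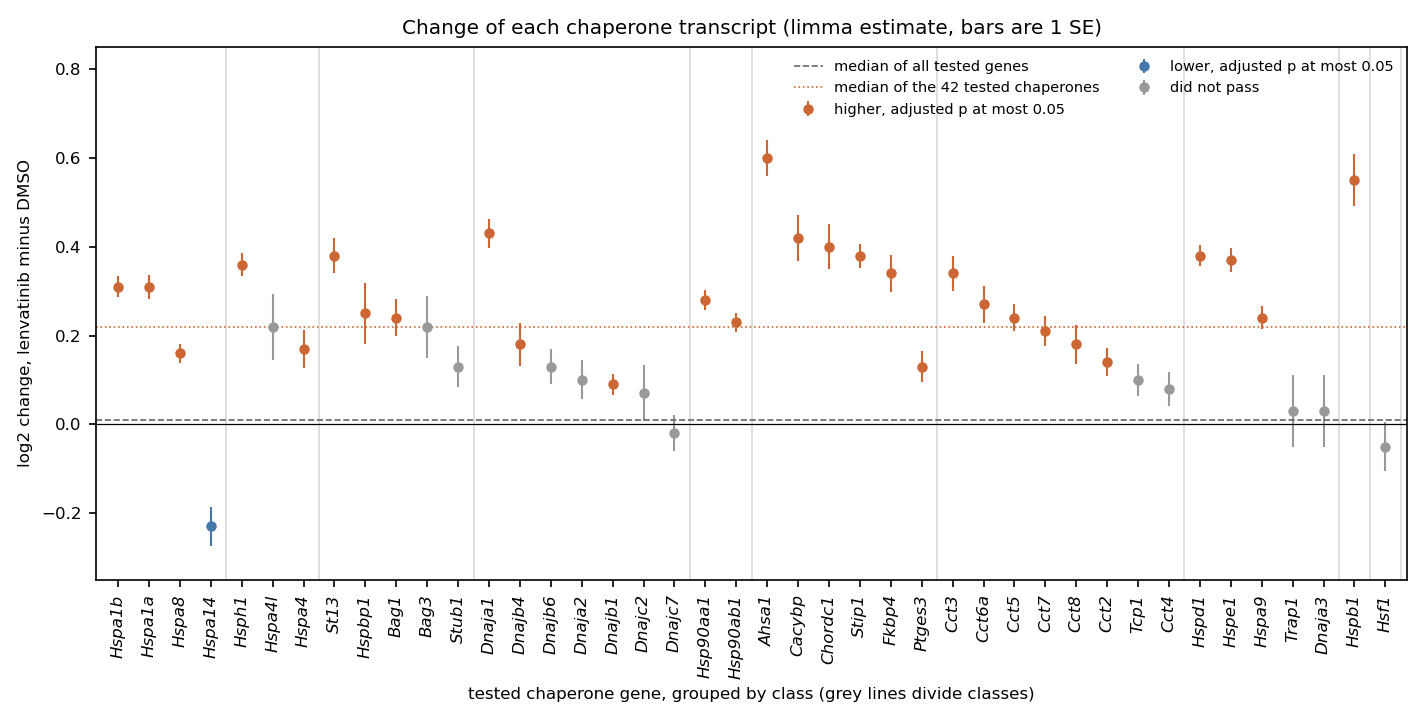
Log2 change of each of the 42 tested chaperone genes, lenvatinib minus DMSO, with bars of 1 SE, genes grouped by class and coloured by the result of the test. The values run from -0.23 for Hspa14 to 0.6 for Ahsa1, and 39 of the 42 are above 0.

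The heat shock factors themselves did not pass. Hsf1, the main activator of heat shock genes, had FPKM of 21.2, 21.6 and 23.2 in the DMSO and 20.5, 21.8 and 21.1 in the lenvatinib libraries, with a log2 change of -0.05 (SE 0.055, adjusted p = 0.547). The groups overlapped. Hsf2, a second factor of the family, lay at 0.661, 0.81 and 1.33 in the DMSO and 0.724, 0.861 and 1.18 in the lenvatinib libraries and was not tested. Transcript levels say nothing of the activity of these factors, which is set largely at the protein level.

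Of the 4 HSP70 genes 3 rose and 1 fell. The stress-inducible Hspa1a stood at 1142, 1154 and 1147 in DMSO and at 1426, 1463 and 1367 in lenvatinib replicates 1, 2 and 3. Its near-identical copy Hspa1b stood at 1204, 1225 and 1238 against 1495, 1551 and 1495. For both genes the lenvatinib libraries were all above the DMSO libraries, with a log2 change of 0.31 each (SE 0.027, adjusted p = 8.31e-05 for Hspa1a, and SE 0.024, adjusted p = 3.59e-05 for Hspa1b). Of the 50-base stretches of annotated Hspa1a transcripts 58.8 percent also occur in Hspa1b, so how their reads were divided is uncertain. In the DMSO libraries both were already above Hsp90aa1 and below Hsp90ab1.

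Hspa8, the constitutive HSP70 of the cytosol, rose less, from 1988, 1919 and 1937 to 2180, 2190 and 2156, a log2 change of 0.16 (SE 0.021, adjusted p = 0.000943). Without trend and robust moderation its adjusted p was 0.067. The ratio of Hspa1a plus Hspa1b to Hspa8 within a library was 1.18, 1.24 and 1.23 in the DMSO and 1.34, 1.38 and 1.33 in the lenvatinib libraries. The groups did not overlap, and the mean log2 ratio was higher by 0.148 with lenvatinib. The exact permutation test gave p = 0.1 (two-sided, n = 3 per group), the smallest p that 3 against 3 allows, and 0.133 after Benjamini-Hochberg adjustment over the 4 ratios and spreads tested.

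Hspa14, a ribosome-associated HSP70, was the 1 chaperone that fell. It stood at 52.3, 48.6 and 49.6 in DMSO and at 41.8, 43 and 42.6 in lenvatinib libraries, a log2 change of -0.23 (SE 0.043, adjusted p = 0.00493). Each lenvatinib library lay below each DMSO library, and the call held in all 18 alternative settings. Dnajc2, its J-domain partner at the ribosome, did not pass, at 29.7, 30.7 and 34.2 against 32.6, 34.8 and 31.6 (adjusted p = 0.53).

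The HSP110 proteins release ADP from HSP70 and so reset its cycle, and 2 of 3 rose. Hsph1, the inducible member, had the smallest SE of the 3, with 276, 278 and 285 in DMSO and 360, 359 and 357 in lenvatinib libraries. Its log2 change was 0.36 (SE 0.025, adjusted p = 1.99e-05). The Hsph1 match printed above lies after the start site, and its part in the change was not tested. Hspa4 rose from 79.2, 82.4 and 86.7 to 91.7, 91.7 and 97.1, a log2 change of 0.17 (SE 0.043, adjusted p = 0.0213). Without DMSO replicate 1, DMSO replicate 2 or lenvatinib replicate 3 the adjusted p of Hspa4 was 0.0715, 0.0577 or 0.0663. Hspa4l, the scarcest of the 3, had a similar change that did not pass, with means of 6 and 7.16 and no overlap between the groups (log2 change 0.22, SE 0.074, adjusted p = 0.0674).

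Among 5 further HSP70 cochaperones 3 rose. St13, which links HSP70 to HSP90 and slows the release of ADP, stood at 58.6, 61.4 and 57.3 in DMSO and at 76, 78.5 and 77.1 in lenvatinib libraries (log2 change 0.38, SE 0.039, adjusted p = 0.000177). Bag1, an exchange factor that also binds the proteasome, rose from 46.9, 47.2 and 47.2 to 53.4, 57.9 and 56.3 (log2 change 0.24, adjusted p = 0.00399). Both changes exceeded the spread within either group.

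The exchange factor Hspbp1 rose from a mean of 14.6 to 17.6 (adjusted p = 0.0342), a call that was lost without any single library except lenvatinib replicate 3. The adjusted p was then 0.063, 0.104 and 0.0715 without DMSO replicates 1, 2 and 3, and 0.0867 and 0.108 without lenvatinib replicates 1 and 2. Bag3, an inducible exchange factor that sends aggregates to autophagy, lay at 22.9, 23 and 26.4 against 26.3, 29.9 and 28.5. The groups overlapped through DMSO replicate 3 and the gene did not pass (adjusted p = 0.0597, and 0.0265 without that library). Stub1, the ubiquitin ligase that marks HSP70 and HSP90 clients for degradation, stood at means of 37.3 and 40.7 and did not pass (adjusted p = 0.0937).

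J-domain proteins bring clients to HSP70, and of the 7 in the cytosol and nucleus 3 rose. Dnaja1 had the largest change of the class, from 215, 220 and 215 to 302, 280 and 295, a log2 change of 0.43 (SE 0.033, adjusted p = 3.1e-05). Dnajb1, the inducible HSP40 and a partner of HSP70 in dissolving aggregates, was the most abundant of the class and changed little. It stood at 294, 293 and 289 in DMSO and 311, 309 and 310 in lenvatinib libraries, 6.19 percent higher by the group means (log2 change 0.09, SE 0.024, adjusted p = 0.0349). Dnajb4 rose from a mean of 19.7 to 22.5 (log2 change 0.18, adjusted p = 0.0288).

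The calls of Dnajb1 and Dnajb4 were lost without any 1 of the 6 libraries, leaving Dnaja1 as the only gene of the class that rose. Their adjusted p then lay between 0.0765 and 0.11 for Dnajb1 and between 0.0574 and 0.0897 for Dnajb4. Dnajb6, which suppresses aggregation of polyglutamine proteins, did not pass, with means of 43.6 and 47.6 and no overlap (log2 change 0.13, adjusted p = 0.0526). Its promoter also holds an element printed above. Dnaja2, a relative of Dnaja1, lay at means of 74.5 and 79.8 with overlapping groups (adjusted p = 0.166). Dnajc7, which has TPR repeats that bind both HSP70 and HSP90, had means of 58.1 and 57.1 (adjusted p = 0.728).

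Both HSP90 genes of the cytosol rose. Hsp90aa1, the inducible isoform, stood at 981, 965 and 970 in DMSO and at 1172, 1177 and 1197 in lenvatinib libraries (log2 change 0.28, SE 0.022, adjusted p = 3.3e-05). Hsp90ab1, the constitutive isoform, stood at 1681, 1700 and 1724 against 2005, 1968 and 1999 (log2 change 0.23, SE 0.021, adjusted p = 9.71e-05). In neither gene did the groups overlap. The ratio of Hsp90aa1 to Hsp90ab1 was 0.584, 0.568 and 0.563 in DMSO and 0.584, 0.598 and 0.599 in lenvatinib libraries. On the log2 scale it was higher by 0.056 with lenvatinib (exact permutation p = 0.1, adjusted 0.133), and DMSO replicate 1 and lenvatinib replicate 1 were nearly equal.

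All 6 HSP90 cochaperones rose, with a median log2 change of 0.39, the highest of any class with more than 1 gene. Ahsa1, which stimulates the ATPase of HSP90, changed most of the 42 tested genes. It stood at 104, 96 and 93.8 in DMSO and at 148, 150 and 148 in lenvatinib libraries, 51.5 percent higher by the group means (log2 change 0.6, SE 0.041, adjusted p = 1.99e-05). Stip1, the adaptor that passes clients from HSP70 to HSP90, rose from 117, 116 and 116 to 152, 150 and 152 (log2 change 0.38, SE 0.027, adjusted p = 2.3e-05). These are the most even values of the class.

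Cacybp, which binds HSP90 and ubiquitin ligase parts, rose from 56.6, 62.1 and 64.8 to 80.1, 82.2 and 84.3 (log2 change 0.42, adjusted p = 0.000504). Chordc1, an HSP90 cochaperone with the long element printed above, rose from 50.3, 52.9 and 56.5 to 73.3, 71.1 and 67.6 (log2 change 0.4, adjusted p = 0.000645). The immunophilin Fkbp4, which helps mature steroid receptors, rose from 62.1, 60.1 and 64 to 77.4, 82.1 and 76.5 (log2 change 0.34, adjusted p = 0.000557). In these 3 genes the lowest lenvatinib library exceeded the highest DMSO library. Ptges3, known as p23, which stabilises the closed HSP90, rose least, from a mean of 66.5 to 72.6 (log2 change 0.13, adjusted p = 0.0331). Its adjusted p was 0.1 and 0.0963 without DMSO replicates 2 and 3, and 0.0931, 0.0659 and 0.0792 without lenvatinib replicates 1, 2 and 3. Ptges3 lost its call in 12 of the 18 alternative settings, among them also quantile normalization and limma-voom on recovered reads. Its copy Ptges3-ps, also in the table, had means of 13.1 and 15.8, and 19.5 percent of the 50-base stretches of Ptges3 occur in it.

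The CCT chaperonin is built from 8 different subunits in equal numbers, and 6 of the 8 genes rose. Cct3 changed most, from 118, 117 and 117 to 147, 157 and 141 (log2 change 0.34, SE 0.04, adjusted p = 0.000463). Cct6a rose from 82.1, 86.2 and 87 to 103, 107 and 98.1 (log2 change 0.27, adjusted p = 0.00193). Cct5 rose by 0.24 and Cct7 by 0.21 on the log2 scale (adjusted p = 0.000622 and 0.00306). In all 4 the groups were separate.

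Cct2, the most abundant subunit, rose from 198, 190 and 192 to 210, 211 and 221 (log2 change 0.14, adjusted p = 0.0114, and 0.103 without trend and robust moderation). Cct8 rose from a mean of 109 to 123 (adjusted p = 0.0224), a call lost without DMSO replicate 2 or 3 or lenvatinib replicate 3 (adjusted p = 0.056, 0.0741 and 0.0521). Tcp1 stood at 147, 142 and 144 against 148, 162 and 155 and did not pass (adjusted p = 0.0864, and 0.0471 without lenvatinib replicate 1). Cct4 stood at 167, 158 and 152 against 164, 165 and 174 and did not pass either (adjusted p = 0.225). The DMSO means of the subunits ran from 85.1 for Cct6a to 193 for Cct2, and the genes with the larger changes were not the most abundant.

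The spread of the 8 subunits, as the SD of their log2 levels within a library, was 0.402, 0.359 and 0.362 in DMSO and 0.328, 0.31 and 0.352 in lenvatinib libraries. It was lower in every lenvatinib library, with a difference of -0.044 between the group means (exact permutation p = 0.1, adjusted 0.133). With 3 libraries per group this test cannot go below 0.1.

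**Figure D3:**
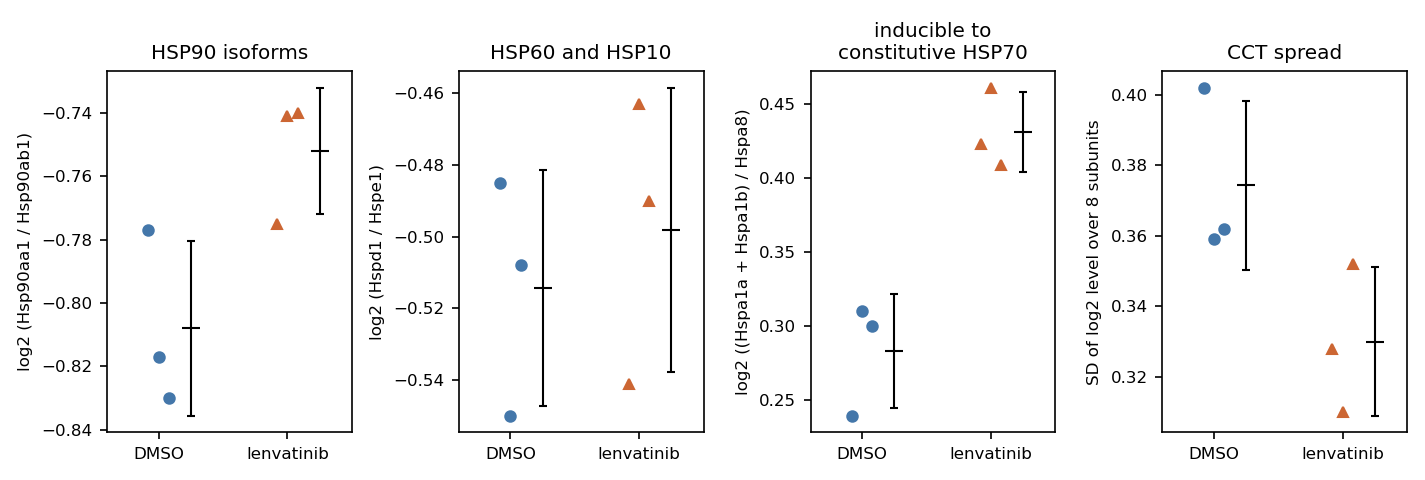
Measures within each library for DMSO (circles) and lenvatinib (triangles), with the mean and SD of 3 libraries beside the points: log2 ratios of Hsp90aa1 to Hsp90ab1, Hspd1 to Hspe1, and Hspa1a plus Hspa1b to Hspa8, and the SD of log2 levels over the 8 CCT genes. The groups are separate for all but the ratio of Hspd1 to Hspe1, and the vertical axes do not start at 0.

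Of the 5 mitochondrial chaperones 3 rose, all of them the abundant ones. Hspd1, the HSP60 barrel, had the smallest p of the 42 tested genes, with 428, 424 and 418 in DMSO and 548, 555 and 554 in lenvatinib libraries (log2 change 0.38, SE 0.024, adjusted p = 1.03e-05). Hspe1, its HSP10 lid, stood at 599, 620 and 594 against 797, 765 and 778 (log2 change 0.37, SE 0.027, adjusted p = 2.62e-05). The ratio of Hspd1 to Hspe1 was between 0.683 and 0.715 in DMSO and between 0.688 and 0.726 in lenvatinib libraries. The groups overlapped in this ratio, with a log2 difference of 0.016 (exact permutation p = 0.6). The 2 genes share the promoter stretch printed above, their annotated exons overlap on opposite strands, and the use of strand in counting was not given in the sources used here.

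Hspa9, the mitochondrial HSP70 that also pulls proteins through the inner membrane, rose from 134, 132 and 135 to 159 in each lenvatinib library (log2 change 0.24, SE 0.026, adjusted p = 0.000263). Trap1, the mitochondrial HSP90, stood at 26, 27.7 and 27.3 against 30.8, 28.3 and 24.1 and did not pass (log2 change 0.03, SE 0.081, adjusted p = 0.839). Dnaja3, the mitochondrial J-domain protein, lay at means of 10.6 and 10.8 (log2 change 0.03, SE 0.082, adjusted p = 0.865). For both the lenvatinib libraries lay on both sides of the DMSO libraries, and without lenvatinib replicate 1 the changes were -0.05 and -0.04.

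Hspb1, a small heat shock protein that holds unfolded proteins without ATP, had the second largest change. It stood at 64.7, 68.9 and 59.2 in DMSO and at 90.3, 93.5 and 100 in lenvatinib libraries (log2 change 0.55, SE 0.059, adjusted p = 0.000246). Of the 50-base stretches of its transcripts 48.8 percent also occur in the pseudogene Hsp25-ps1.

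Other genes of the folding machinery were called higher at about the share of all tested genes, and none was called lower in limma. Of 57 tested genes in 7 related lists outside the endoplasmic reticulum 6 rose (10.5 percent) and 0 fell, against 10.4 and 8.21 percent of all tested genes, with a median log2 change of 0.06. Without lenvatinib replicate 2 the number that rose was 3. At an unadjusted p under 0.05 in limma 13 of the 57 were higher (22.8 percent) and 1 lower (1.75 percent), against 17.6 and 14.7 percent of all tested genes. In limma-voom on recovered reads 10 were called higher (17.5 percent) and 1 lower (1.75 percent), against 12.7 and 12.3 percent. The groups did not overlap in 12 higher (21.1 percent) and 2 lower (3.51 percent) of the 57, against 18.9 and 18.2 percent. Prefoldin, which hands actin and tubulin to CCT, had 0 of 6 genes past limma's test and 0 in limma-voom, with 2 higher at an unadjusted p under 0.05. Its smallest p belonged to Pfdn4, with means of 16.8 and 20.1 (adjusted p = 0.142, and 0.033 without lenvatinib replicate 2). Among 10 other mitochondrial chaperones and proteases 0 passed in limma, 0 in limma-voom and 0 at an unadjusted p under 0.05, with Lonp1, a matrix protease, at 26.4 and 29.1 (adjusted p = 0.164) and Grpel1, the exchange factor of Hspa9, at 14.9 and 15.9 (adjusted p = 0.341).

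The 6 that rose were named by the rule of smallest p in each list. Dnaja4, a J-domain protein of the Dnaja1 family, had the largest change, from a mean of 5.03 to 13.5, a log2 change of 1.27 (SE 0.09, adjusted p = 2.3e-05). Fkbp5, an immunophilin that glucocorticoids induce, rose from 18.2 to 24.2 (log2 change 0.4, adjusted p = 0.0012). Both kept the call without each library in turn.

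The other 4 lost it without some libraries. Dnajc15, a J-domain protein of the inner mitochondrial membrane, was listed with the other J-domain proteins and not with the other mitochondrial genes. It rose from 10.3 to 17.2 (adjusted p = 0.0127, and 0.0526 without lenvatinib replicate 2). Hspa1l, which lies beside Hspa1a, rose from 5.15 to 8.51 (adjusted p = 0.0147, and 0.0527 and 0.051 without DMSO replicate 3 and lenvatinib replicate 2). Cdc37, which brings kinases to HSP90, rose from 69.9 to 80.7 (adjusted p = 0.0178, and 0.0559 and 0.0645 without DMSO replicate 1 and lenvatinib replicate 2). Pdcl3, a CCT cofactor, rose from 9.66 to 13 (adjusted p = 0.0405, and 0.0835, 0.125, 0.132 and 0.114 without DMSO replicates 1 and 3 and lenvatinib replicates 2 and 3).

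Chaperones of the endoplasmic reticulum, a compartment with its own stress response, rose at a share close to that of all tested genes. Of 18 tested genes 2 rose (11.1 percent) and 1 fell (5.56 percent), with a median log2 change of 0.05. Canx, the lectin chaperone calnexin, rose from 126 to 136 (adjusted p = 0.017), and Pdia3, a disulfide isomerase, from 120 to 131 (adjusted p = 0.0195). Dnajb9, a J-domain protein of the compartment, fell from 88.4 to 77.9 (adjusted p = 0.0478). Canx lost its call without DMSO replicate 3 or lenvatinib replicate 2 (adjusted p = 0.0555 and 0.0511). Pdia3 lost it without DMSO replicate 1 or 2 or lenvatinib replicate 1 or 3 (adjusted p = 0.0633, 0.055, 0.0721 and 0.0506). Dnajb9 lost it without DMSO replicate 1 or 3 or lenvatinib replicate 1 or 2 (adjusted p = 0.114, 0.136, 0.139 and 0.129). The HSP70 of this compartment, Hspa5, stood at 732 and 764 (adjusted p = 0.106) and its HSP90, Hsp90b1, at 485 and 480 (adjusted p = 0.764). These counterparts of Hspa8 and Hsp90ab1 were picked with their values known.

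**Figure D4:**
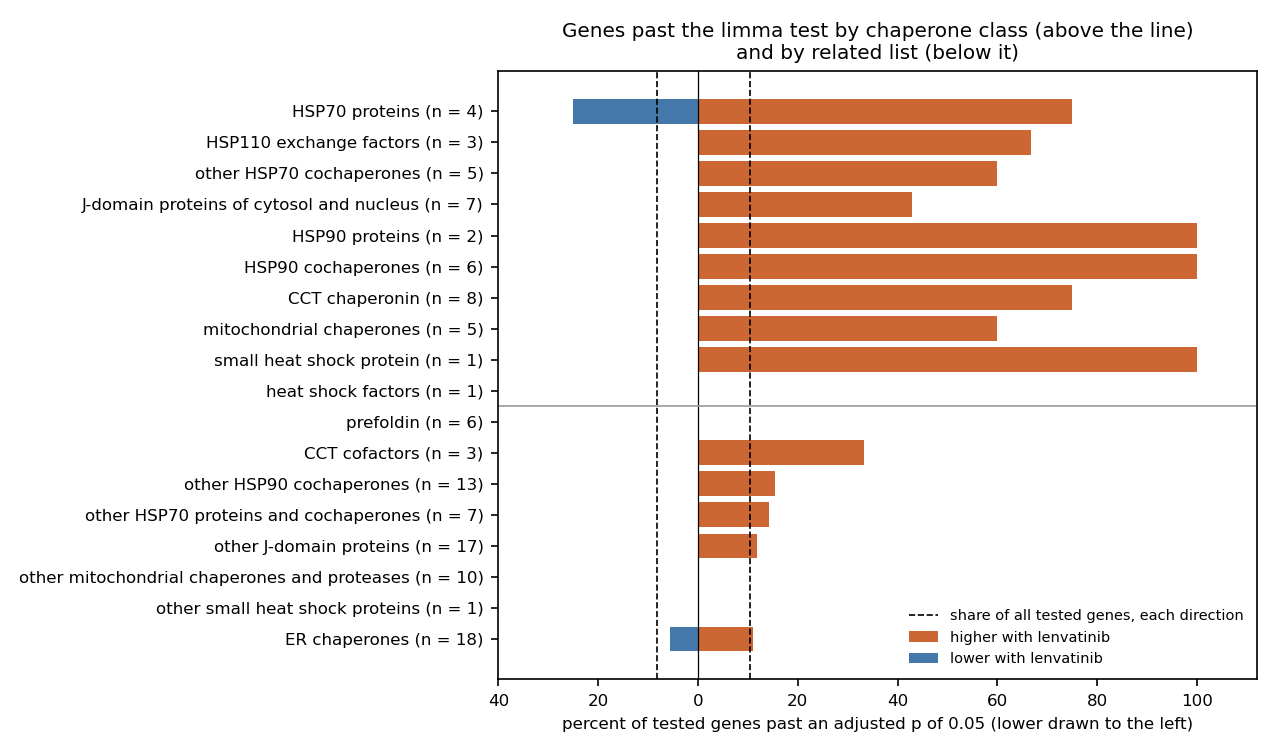
Percent of tested genes past an adjusted p of 0.05, higher (right) or lower (left) with lenvatinib, for each chaperone class above the grey line and each related list below it, with the number tested beside each name. Dashed lines mark the shares over all tested genes, 10.4 percent higher and 8.21 percent lower, and the classes above the line reach from 42.9 to 100 percent higher except for the heat shock factors.

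Sequence copies limit how exactly some levels are known. More than 10 percent of the 50-base transcript stretches occurred in another annotated gene for Hspb1 (48.8 percent), Hspa1b (62.3), Hspa1a (60.3), Hsp90aa1 (47.5), Hspd1 (39.7), Hspa8 (38.6), Ptges3 (19.6), Hspe1 (18.4), Dnajb6 (17.7) and Dnaja1 (11.9). For the other chaperones the share was at most 6.83 percent, that of Hspa14, shared with the overlapping gene Gm45902. Exons of 13 of the 43 genes overlap an exon on the opposite strand. Of the 23 genes with at most 10 percent shared stretches and no exon overlap on either strand 22 were tested, of which 16 rose, 0 fell and 6 did not pass (Hspa4l, Hsf1, Dnaja2, Dnajc2, Cct4 and Bag3), with a median log2 change of 0.23. Of the other 20 genes 13 rose, 1 fell and 6 did not pass, with a median of 0.19.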

How the data were processed

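The authors deposited FPKM values for 6 libraries, 3 per group. The submitters' processing notes name HTSeq and GRCm39, with neither a role nor a version, and the labels' protocols give TRIzol extraction of total RNA. The aligner, annotation and use of strand are not given in the sources used here. All 6 value columns were used, and each sample's description names its column.

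FPKM were divided by median-of-ratios factors of 0.992 to 1.009. Genes at 1 or more in 3 or more libraries were tested on log2(FPKM + 1) with limma 3.58.1 in R 4.3.3, with trend and robust moderation, two-sided, with Benjamini-Hochberg adjustment over all 9937 genes. Ratios were compared by exact permutation in scipy 1.17.1. Read totals and whole reads were recovered from the FPKM steps, to a tolerance of 1e-05, as the smallest whole numbers that give the values. The procedures were tested on simulated data. Promoters came from RefSeq and transcripts from GENCODE M21, both GRCm38, a build other than the authors'. No gene coordinates of the table are printed.

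The genes, classes and lists were chosen with earlier results of these data known. Every chaperone may be named, and from each related list the 3 tested genes with the smallest p. Alternatives changed the pseudocount, filter, scaling, moderation, weights and block, used limma-voom on recovered reads, or left out each library.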

Additional observations from a re-analysis of the deposited data

How the results depend on the processing

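Of the 42 tested chaperones 29 rose. Under 18 alternatives the number lay between 23 and 31, and between 23 and 26 without single libraries, with 1 lower each time and a median log2 change of 0.2 to 0.24. A total of 22 genes, 21 of them higher, passed under every alternative. Same-numbered libraries did not deviate together across genes (r of -0.007, 0.006 and -0.005), and not every library correlated best with its own number. With a replicate block 24 rose, and 1 J-domain gene in place of 3. HSP90 cochaperones that rose numbered 5 in place of 6 with this block, with quantile normalization and in limma-voom, among other settings. HSP110 genes that rose numbered 1 in place of 2, and J-domain genes 1, with no filter on low values, with scaling to the sum of FPKM, and with that sum without mitochondrial genes. Without single libraries they numbered 1 to 2 and 1. Scaling moved the median of all tested genes by at most 0.025. Class medians became 0.16 for HSP70 with quantile normalization. For HSP90 they were 0.27 with FPKM as deposited, 0.23 with either sum and 0.2 with quantile normalization. HSP90 cochaperones had 0.36 with either sum and 0.36 to 0.41 without single libraries, J-domain genes 0.09 to 0.14. Mitochondrial chaperones had 0.26 as deposited, 0.22 with either sum and 0.23 with quantile normalization.

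Related genes outside the endoplasmic reticulum rose in 2 cases with no filter, 10 (with 1 lower) in limma-voom on recovered reads and 3 to 6 without single libraries. Chaperones of the endoplasmic reticulum rose in 4 cases as deposited, 0 with either sum or without trend and robust moderation, and 1 to 2 without single libraries. They fell in 0 cases with no filter, as deposited, without trend and robust moderation or with array weights, and 0 to 1 without single libraries. The median of other HSP90 cochaperones became -0.01 with either sum and -0.02 to 0.05 without single libraries, and that of other mitochondrial genes -0.02 to 0.04. Dnaja3 changed by 0 with the sum without mitochondrial genes and by -0.04 to 0.08 without single libraries, Trap1 by -0.05 to 0.12. The log2 ratio of Hspd1 to Hspe1 differed by -0.002 to 0.038. The causes were not tested. With a mean filter of 5 no other small heat shock protein was left to give a median. Hsf2 was the chaperone below the FPKM filter, with 168 to 383 recovered reads per library out of recovered totals of at least 26635279.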
